A study of Homo sapiens with 2 samples.

Results

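The set described here holds 9 genes: CPS1, NAGS, OTC, ASS1, ASL, ARG1, ARG2, SLC25A13 and SLC25A15, the enzymes and mitochondrial carriers of the urea cycle. They were taken by symbol from a table of 37364 genes, and all 9 were listed. The set was chosen by the level of CPS1, known beforehand to be high in both libraries, so that level is given as a description. The libraries held polyadenylated RNA of D407, an established human cell line labelled as retinal pigment epithelium (RPE). The control group was 1 library of cells labelled control, and the other group was 1 library of cells given clusterin, a secreted chaperone glycoprotein. Both came from the same line in serum-containing medium, and the sources used here do not give the dose or duration of clusterin. Totals recovered from the levels were 38236994 control reads and 33177088 clusterin reads. With 1 library per group there was no replicate check on any difference, no test between the groups was made, and every interval covers counting error only.

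The urea cycle turns ammonia, a product of amino acid breakdown, into urea. Inside mitochondria, carbamoyl phosphate is made from ammonia and bicarbonate and joined to ornithine to give citrulline. In the cytosol, citrulline gains the nitrogen of aspartate, and arginine is formed and split into urea and ornithine. The whole cycle runs in periportal hepatocytes, and the mitochondrial steps are also active in the small intestine. Many other tissues use single enzymes of the cycle, chiefly to make or spend arginine.

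Levels are reads scaled to transcript length and library total (RPKM). CPS1, which makes carbamoyl phosphate and is the entry step of the cycle, stood at 165 RPKM in the control and 150.3 RPKM in the clusterin library. It ranked 289 of 20607 genes above 0 in the control and 304 of 20560 with clusterin. Among genes listed by symbol, with small RNA genes left out, the ranks were 213 and 221. CPS1 was 27.8 times the median measured gene in the control and 26.8 times with clusterin, where a measured gene is one that averaged 1 RPKM or more. It drew 38816 control reads, or 0.102% of that library (exact Clopper-Pearson 95% interval 0.101% to 0.103%). In the clusterin library it drew 30748 reads, or 0.0927% (0.0916% to 0.0937%). The gene lies on chromosome 2, from 210477685 to 210679107 (GRCh38.p14), on the forward strand.

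NAGS, the mitochondrial enzyme that makes N-acetylglutamate, the activator that CPS1 requires, stood at 0.429 RPKM in the control and 0.422 RPKM with clusterin, from 34 and 29 reads. The CPS1 level was thus 384 times the NAGS level in the control and 356 times in the clusterin library. Both multiples rest on these few NAGS reads, so no difference between them is read. OTC, which joins carbamoyl phosphate to ornithine, was listed at 0 in both libraries. The ribosomal protein gene RPS18, needed by all cells, was listed at 0 too, and no gene with recovered reads had fewer than 6 over both libraries. A listed 0 is therefore reported only as such.

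The cytosolic enzymes that make arginine were both present. ASS1, which joins citrulline to aspartate, stood at 55.0 RPKM in the control and 53.1 RPKM with clusterin, from 3886 and 3253 reads. It ranked 811 and 821 among genes above 0. CPS1 drew 9.99 times the control reads of ASS1 but stood only 2.99 times as high in RPKM, since the length used for CPS1 was greater. ASL, which releases arginine and fumarate, stood at 9.40 RPKM and 8.98 RPKM, from 761 and 631 reads. The ASS1 level was 5.85 times the ASL level in the control and 5.91 times with clusterin. RefSeq names 14 pseudogenes of ASS1, 1 of ASL and 5 of SLC25A15. None of these was analysed here, and reads shared with such copies could not be told apart, so these 3 levels are uncertain.

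The arginases, which split arginine, were divided. ARG1, the cytosolic arginase of liver, was listed at 0 in both libraries. ARG2, the mitochondrial arginase, stood at 5.32 RPKM in the control and 4.03 RPKM with clusterin, from 403 and 265 reads. It was the lowest of the 6 measured members in each library.

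Both carriers of the inner mitochondrial membrane were measured. SLC25A13 (citrin) exports aspartate in exchange for glutamate, and stood at 14.4 RPKM in the control and 12.3 RPKM with clusterin, from 1755 and 1305 reads. Its close relative SLC25A12 (aralar) stood at 2.80 RPKM and 2.53 RPKM, so citrin was 5.13 and 4.86 times as high. SLC25A15, which exchanges ornithine for citrulline, stood at 7.98 RPKM and 8.43 RPKM, from 1227 and 1125 reads. Its relative SLC25A2 was listed at 0. In both libraries the order was thus CPS1, ASS1, SLC25A13, ASL, SLC25A15, ARG2 and NAGS, with OTC and ARG1 at 0. CPS1 held 64.0% of the summed RPKM of the 9 genes in the control and 63.3% with clusterin. ASL and SLC25A15 were the closest neighbours in that order, at 9.40 and 7.98 RPKM in the control and 8.98 and 8.43 RPKM with clusterin. No spread between replicates was available to separate neighbouring levels.

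**Figure D1:**
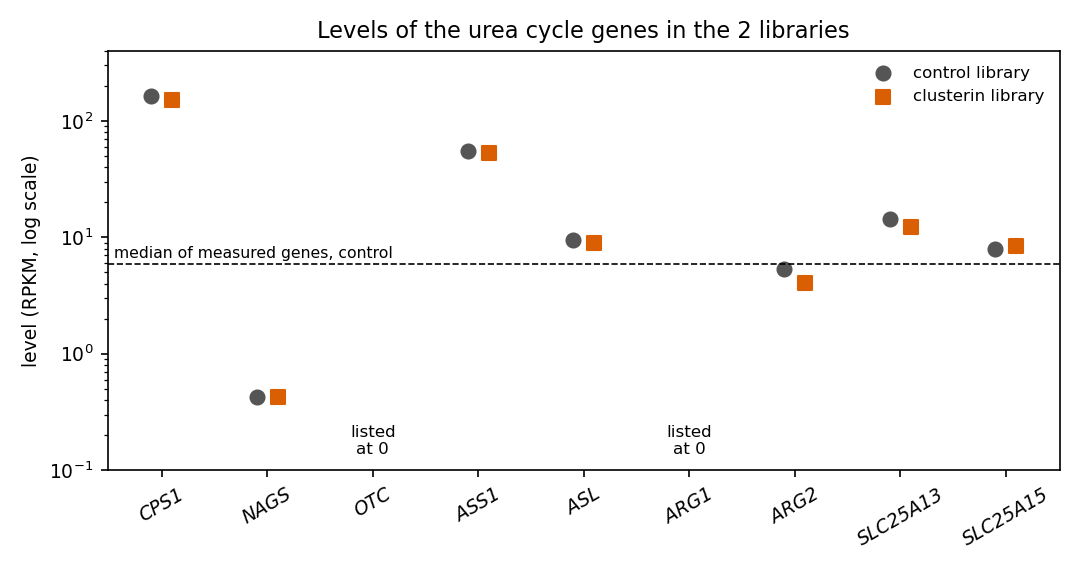
Level of each urea cycle gene in RPKM on a log axis, with 1 circle for the control library and 1 square for the clusterin library. CPS1 sits at 165 and 150.3 RPKM and NAGS at 0.429 and 0.422, while OTC and ARG1 were listed at 0. The dashed line is the median of measured genes in the control, 5.93 RPKM.

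The sequences before the start sites are shown because the members differ widely in how many CG pairs these windows hold. The windows are the 250 bases before each start in RefSeq (GRCh38.p14), written 5′ to 3′ on the gene's strand, with capitals for every CG pair and for TATAAA. CPS1 has 3 listed starts, of which the middle lies 42033 bases and the last 115670 bases after the first. The windows cover chr2:210477435-210477684, chr2:210519468-210519717 and chr2:210593105-210593354, all on the forward strand. ARG1 (chr6:131572976-131573225), OTC (chrX:38352354-38352603), ARG2 (chr14:67619670-67619919) and the upstream of the 2 starts of ASS1 (chr9:130444457-130444706) are also on the forward strand.
CPS1 first start: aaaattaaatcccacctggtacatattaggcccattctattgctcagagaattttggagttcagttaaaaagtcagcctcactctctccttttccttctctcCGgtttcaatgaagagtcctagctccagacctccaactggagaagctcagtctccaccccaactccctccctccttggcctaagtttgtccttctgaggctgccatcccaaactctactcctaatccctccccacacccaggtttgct
CPS1 middle start: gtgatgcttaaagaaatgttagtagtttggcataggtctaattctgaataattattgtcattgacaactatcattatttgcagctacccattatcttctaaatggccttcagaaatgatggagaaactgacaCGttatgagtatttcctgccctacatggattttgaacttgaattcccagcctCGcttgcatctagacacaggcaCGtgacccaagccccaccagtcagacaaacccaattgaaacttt
CPS1 last start: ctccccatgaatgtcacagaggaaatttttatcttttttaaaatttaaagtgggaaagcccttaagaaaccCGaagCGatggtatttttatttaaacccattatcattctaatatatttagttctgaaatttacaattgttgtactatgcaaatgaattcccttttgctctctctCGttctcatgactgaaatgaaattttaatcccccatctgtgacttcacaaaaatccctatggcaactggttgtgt
ARG1: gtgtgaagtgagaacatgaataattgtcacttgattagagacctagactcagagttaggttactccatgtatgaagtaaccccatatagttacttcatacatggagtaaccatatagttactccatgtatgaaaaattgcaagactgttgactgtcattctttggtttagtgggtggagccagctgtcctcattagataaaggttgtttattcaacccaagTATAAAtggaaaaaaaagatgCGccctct
OTC: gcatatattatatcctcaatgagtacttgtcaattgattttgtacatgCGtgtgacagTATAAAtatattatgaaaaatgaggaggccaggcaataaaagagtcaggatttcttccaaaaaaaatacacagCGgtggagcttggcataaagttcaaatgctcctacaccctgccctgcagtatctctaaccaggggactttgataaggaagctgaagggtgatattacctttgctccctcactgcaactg
ARG2: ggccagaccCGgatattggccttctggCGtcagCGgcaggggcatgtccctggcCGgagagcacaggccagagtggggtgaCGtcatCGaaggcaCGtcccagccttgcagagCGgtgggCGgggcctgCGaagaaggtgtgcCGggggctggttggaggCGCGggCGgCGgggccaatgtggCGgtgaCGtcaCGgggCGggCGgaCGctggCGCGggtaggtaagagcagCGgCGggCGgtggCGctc
ASS1 upstream start: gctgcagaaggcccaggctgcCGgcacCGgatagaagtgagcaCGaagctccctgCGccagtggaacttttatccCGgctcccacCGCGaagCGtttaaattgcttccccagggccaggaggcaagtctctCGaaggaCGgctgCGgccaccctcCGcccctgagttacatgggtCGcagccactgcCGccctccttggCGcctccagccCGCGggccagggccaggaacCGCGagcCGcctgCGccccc

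The CPS1 windows held 1, 3 and 3 CG pairs, and their GC content was 48.4%, 40% and 33.6%. In this they were like the windows of the members listed at 0, with 1 CG pair for ARG1 and 2 for OTC. The windows of the other members held 13 CG pairs for NAGS, 21 and 24 for ASS1, 22 for ASL, 27 for ARG2, 21 for SLC25A13 and 35 for SLC25A15. The limit of 3 pairs used next is the highest count of CPS1 itself, so the shares describe where CPS1 lies and support nothing about its level, for which it was chosen. Windows with at most 3 CG pairs made up 29.3% of all 35116 windows. Taking the highest count over a gene's starts, at most 3 CG pairs were found for 40.6% of 4064 genes listed at 0 in both libraries and for 2.20% of 8051 measured genes. Of 229 genes that averaged 100 RPKM or more, the share was 1.31%, or 3 genes. Beside CPS1, these were KRT8, with 1 CG pair at a mean of 229 RPKM, and BST2, with 2 at 162 RPKM. Such a window at this level is thus not particular to CPS1. The table of windows is not complete, and the deposited values do not tell which start the CPS1 transcripts used.

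On both strands, TATAAA was found in 10.7% of all windows, CCAAT in 32.0% and GGGCGG in 42.6%; GGGCGG itself holds a CG pair. TATAAA was found only before ARG1, beginning 29 bases before the start, and OTC, 192 bases before it. GGGCGG was found before NAGS, ASS1, ASL, ARG2, SLC25A13 and SLC25A15, and not in the windows of CPS1, ARG1 or OTC. CCAAT was found before ASL, ARG2, SLC25A13 and the middle start of CPS1. These matches describe letters, not bound sites.

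**Figure D2:**
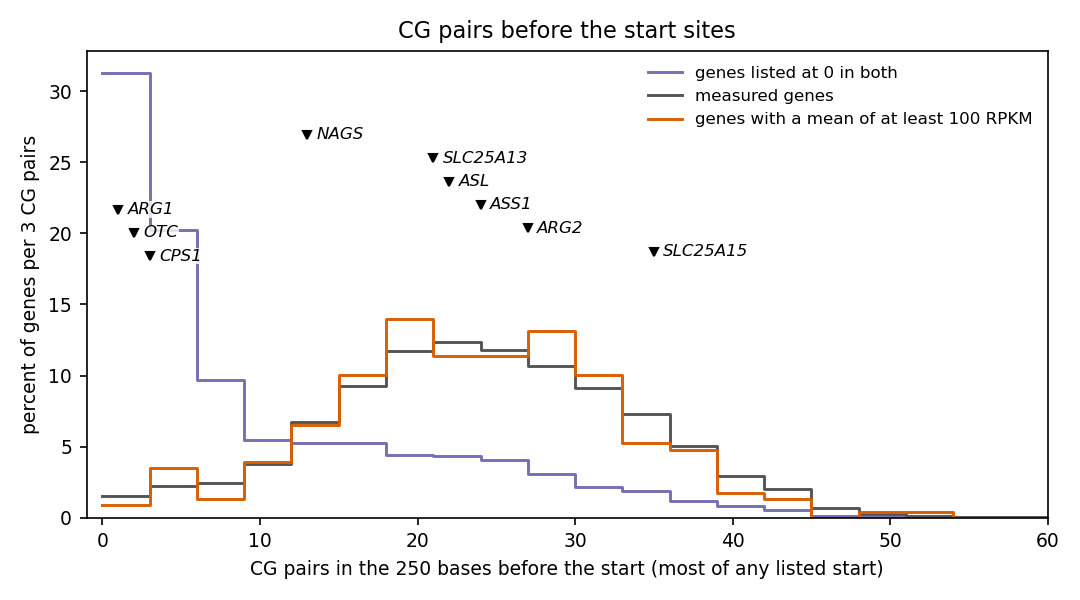
Distribution of CG pairs in the 250 bases before the start (horizontal axis, the highest count of any listed start) as percent of genes in steps of 3 pairs, for genes listed at 0, measured genes and genes that averaged 100 RPKM or more. Triangles mark the members, at heights chosen for legibility: CPS1, at 3 pairs, lies with ARG1 and OTC, which were listed at 0, and apart from the other 6.

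The study asked which transcripts differ in RPE cells after clusterin. In the median and direction of their differences, the urea cycle genes as a set were about like measured genes in general. The authors' q-values are given separately below. Differences are log2((clusterin RPKM + 1)/(control RPKM + 1)), and a value of at least 1 in size was counted as 2-fold. None of the 6 measured members was 2-fold apart, against 0.219% of 13244 measured genes, a share so low that most sets of 6 would hold none. The members' median difference was -0.09, with 5 lower and 1 higher, beside a median of -0.06 and 70.2% below 0 over all measured genes. Relative to that median of all measured genes, 3 members were lower and 3 higher. Less RNA per cell and fewer cells holding a transcript cannot be told apart in such bulk libraries.

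ARG2 showed the largest difference among the members. Its RPKM ratio of clusterin to control was 0.758, with a 95% counting interval of 0.647 to 0.887, or 24.2% lower. Of 13761 genes with at least 100 reads, 4.27% had a lower ratio. On the log2(RPKM + 1) scale, which understates folds of low genes, the ARG2 difference was -0.33. SLC25A13 followed, at a ratio of 0.857 (0.797 to 0.921), and 15.2% of those genes had a lower ratio. Thus the mitochondrial arginase and the aspartate carrier were the members furthest below the general offset between the libraries.

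CPS1 had a ratio of 0.913 (0.899 to 0.927), or 8.70% lower with clusterin. The interval is narrow because CPS1 drew so many reads, but the CPS1 ratio lay well inside the spread of other genes. Over 576 genes with more than 10000 reads, 16.5% had a lower ratio than CPS1, and their 5th and 95th percentiles of log2 ratio were -0.17 and 0.05. CPS1 stood at -0.13 on that scale, where the median of these genes was -0.07. LANCL1, whose listed start lies 64 bases from that of CPS1 on the other strand, had nearly the same log2 difference, -0.12 beside -0.13 for CPS1. The other measured neighbours within 1 Mb stood at 0.04 (CPS1-IT1), -0.05 (the epimerase gene RPE) and -0.19 (KANSL1L). Values like that of CPS1 were common, since 32.6% of genes with at least 100 reads had a lower ratio. A link between LANCL1 and CPS1 was not tested.

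The remaining members had intervals that included a ratio of 1. ASS1 had a ratio of 0.965 (0.921 to 1.01), ASL 0.956 (0.859 to 1.06) and NAGS 0.983 (0.578 to 1.66). SLC25A15, the ornithine carrier, was the only member with a ratio above 1 on the deposited levels, at 1.06 (0.974 to 1.15), and 85.3% of genes with at least 100 reads had a lower ratio. When the median log2 ratio of measured genes was set to 0, the log2 differences of ASS1 (0.02), NAGS (0.01) and ASL (0.00) were no longer below 0, so no direction is given for them.

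Measured against the median log2 ratio of genes with at least 100 reads, -0.07, CPS1 stood at -0.06 (-0.08 to -0.04), ARG2 at -0.33 (-0.56 to -0.10) and SLC25A13 at -0.15 (-0.25 to -0.05). SLC25A15 stood at 0.15 (0.03 to 0.27) on the same scale. These 4 intervals left out the general offset, whereas those of ASS1, ASL and NAGS included it. Such intervals narrow with depth, and the share of all genes whose intervals leave out the offset is not given here. Whether these 4 members are set apart from other genes was therefore not tested, and nothing is read from this count.

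In the authors' deposited table, 3 of the 7 members above 0 had a q below 0.05, all lower with clusterin: CPS1 at 3.14e-30, SLC25A13 at 0.000751 and ARG2 at 0.00725. Over all genes above 0, 10.4% were called lower in that way, and over genes with at least 100 reads 14.5%, of which the set holds 6. Among genes with more than 10000 reads, which CPS1 is one of, 54.7% were called lower, so a small q of a deeply read gene is common here. The deposited q-values count read sampling error only and compare these 2 libraries. The authors' deposited q was 0.359 for ASS1, 0.661 for ASL, 0.431 for SLC25A15 and 0.983 for NAGS.

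**Figure D3:**
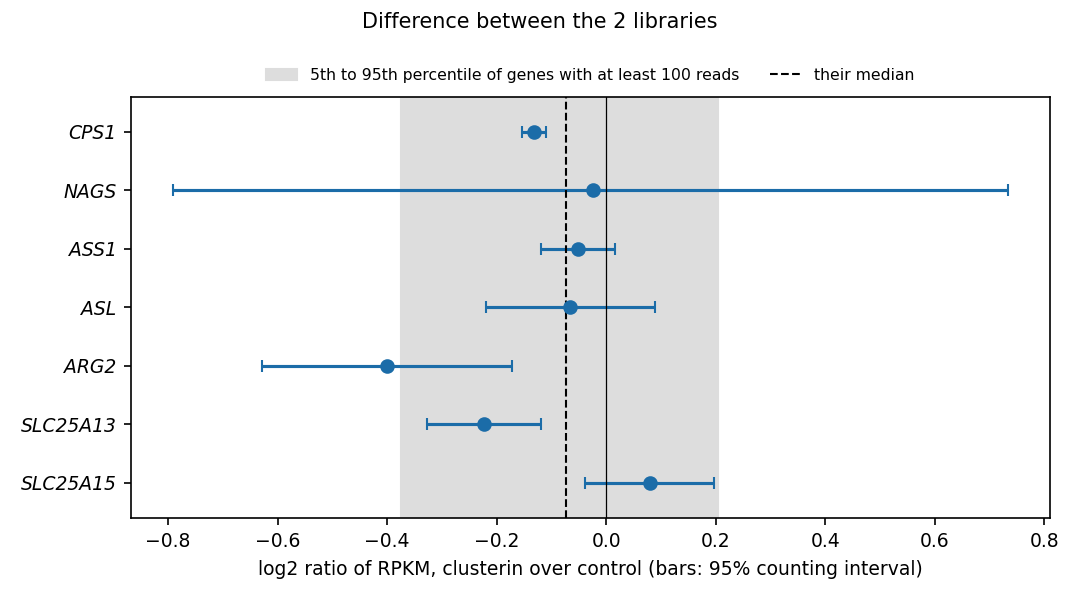
Log2 ratio of RPKM, clusterin over control, for the 7 members above 0, with 95% counting intervals as bars. The grey band runs from the 5th to the 95th percentile of genes with at least 100 reads, and only ARG2, at -0.40, has its point outside that band.

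**Figure D4:**
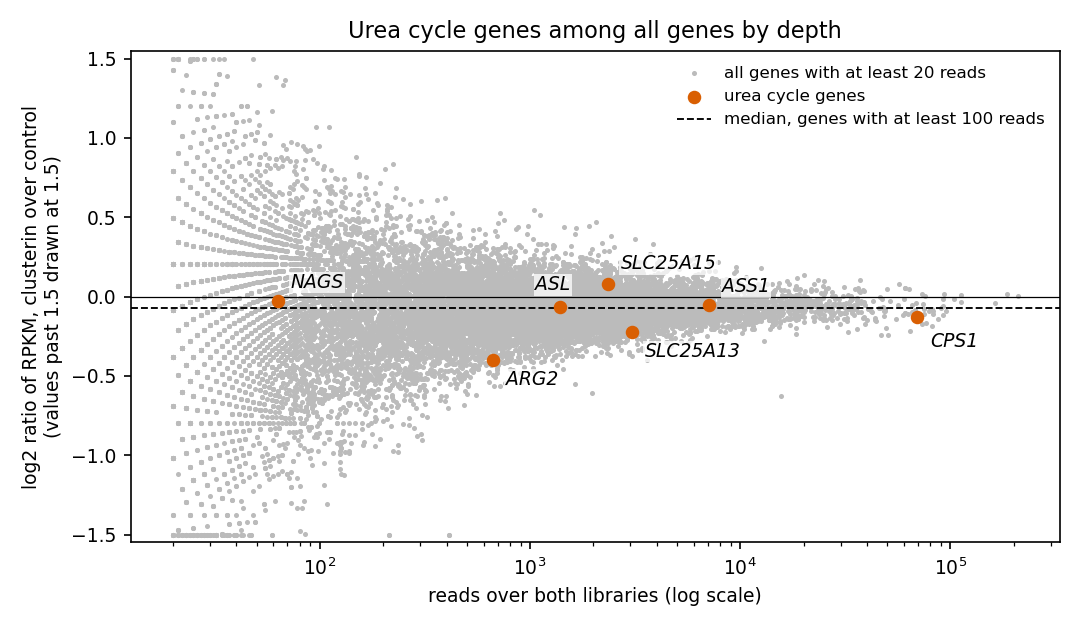
Log2 ratio of RPKM against reads over both libraries (log axis), with every gene of at least 20 reads in grey and the members in orange. CPS1 lies at the deep end with 38816 and 30748 reads, below the dashed median of -0.07.

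CPS1 was chosen for its high level, so the lower levels of the genes around it are given only as a description. Within 1 Mb of CPS1, 12 other genes were listed, of which 4 averaged 1 RPKM or more and 3 were at 0. LANCL1, a glutathione-binding protein, stood at 21.4 RPKM in the control and 19.6 RPKM with clusterin, so CPS1 was 7.70 and 7.66 times as high. The others were RPE, an epimerase of the pentose phosphate pathway and not a tissue marker, at 11.4 and 11.0 RPKM, and KANSL1L, at 2.35 and 1.94 RPKM. CPS1-IT1, a noncoding transcript inside CPS1 on the same strand, stood at 2.25 and 2.34 RPKM, from 198 and 179 reads. Reads of unspliced CPS1 and of CPS1-IT1 cannot be told apart. On the far side of CPS1, the nearest gene, ENSG00000229127.1, stood at 0.131 and 0.164 RPKM.

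By Euclidean distance of log2(RPKM + 1) over the 2 libraries, the genes with a symbol nearest to CPS1 were BTF3, TRMT112, ATF4, RPL31 and EIF2S3, at distances of 0.0066, 0.032, 0.041, 0.051 and 0.054. BTF3, which binds nascent polypeptides, stood at 164 and 151 RPKM. ATF4, the transcription factor of amino acid stress, stood at 163 and 146 RPKM, and RPL31, a ribosomal protein gene, at 166 and 156 RPKM. TRMT112, a partner of several methyltransferases, stood at 167 and 153 RPKM, and EIF2S3, a translation initiation factor subunit, at 159 and 148 RPKM. With 2 libraries this likeness is one of level.

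CAD is the cytosolic enzyme that makes carbamoyl phosphate, there for pyrimidine synthesis. CAD stood at 7.38 RPKM in the control and 7.31 RPKM with clusterin, so the CPS1 level was 22.3 and 20.6 times as high. The other enzymes of that pathway, UMPS at 6.29 and 6.26 RPKM and DHODH at 5.50 and 5.29 RPKM, were close to CAD. All 3 had log2 differences between -0.05 and -0.01, above the median of all measured genes.

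Among 15 genes of ammonia, glutamine and glutamate, 12 were measured, 10 lower and 2 higher, with none past 2-fold and a median of -0.05. Beside the 70.2% of all measured genes that were lower, 5 of the 12 lay below the median of all. The amino acid transporters SLC38A2 (136 and 135 RPKM) and SLC38A1 (59.98 and 56.9 RPKM) led the list. GLUD1, glutamate dehydrogenase, which releases ammonia in mitochondria, stood at 45.8 and 44.1 RPKM. GOT2, the mitochondrial aspartate aminotransferase, stood at 37.9 and 37.0 RPKM. Its cytosolic partner GOT1, named after its values were seen, stood at 13.7 and 11.4 RPKM, with a ratio of 0.833 (0.759 to 0.912). Its log2 difference of -0.24 was the lowest of the list.

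Of 19 genes of ornithine, proline and polyamines, 16 were measured, 15 lower and 1 higher, with a median of -0.06 and none past 2-fold. Only 9 of the 16 lay below the median of all measured genes, and the list's median was -0.002 once the median of all was set to 0. OAZ1, the antizyme that restrains ornithine decarboxylase, stood at 170.4 and 159 RPKM. SMS, spermine synthase, stood at 88.8 and 78.9 RPKM and ODC1, ornithine decarboxylase itself, at 41.0 and 39.2 RPKM. SAT1, which acetylates polyamines, stood at 39.1 and 39.0 RPKM.

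Of 16 genes of arginine transport and use, 9 were measured, 7 lower and 2 higher, with a median of -0.05 and none past 2-fold; 3 of the 9 lay below the median of all measured genes. SLC3A2, the shared heavy chain of several amino acid transporters, stood at 145 and 141 RPKM. PRMT1, an arginine methyltransferase, stood at 60.2 and 67.4 RPKM and had the highest difference of the list, at a ratio of 1.12 (1.07 to 1.17). PRMT5 stood at 19.5 and 19.1 RPKM and SLC7A6 at 10.9 and 10.4 RPKM. All 3 nitric oxide synthases, NOS1, NOS2 and NOS3, were listed at 0, as was GATM, the first enzyme of creatine synthesis.

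Of 8 genes that handle the aspartate and fumarate of the cycle, all were measured, 5 lower and 3 higher, with a median of -0.05 and none past 2-fold; 4 of the 8 lay below the median of all measured genes. MDH2 stood at 99.1 and 92.8 RPKM and MDH1 at 35.6 and 32.2 RPKM, both malate dehydrogenases. FH, fumarase, stood at 60.5 and 54.1 RPKM, with the lowest log2 difference of the list, -0.16. Among the related carriers, 3 of 5 were measured, 2 higher and 1 lower, with a median of 0.02, led by SLC25A29 at 8.50 and 8.66 RPKM. SIRT5, a mitochondrial deacylase known to act on CPS1, stood at 1.10 and 1.30 RPKM, and SIRT3 at 4.51 and 4.06 RPKM. The median difference of the 2 measured sirtuins was 0.01.

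**Figure D5:**
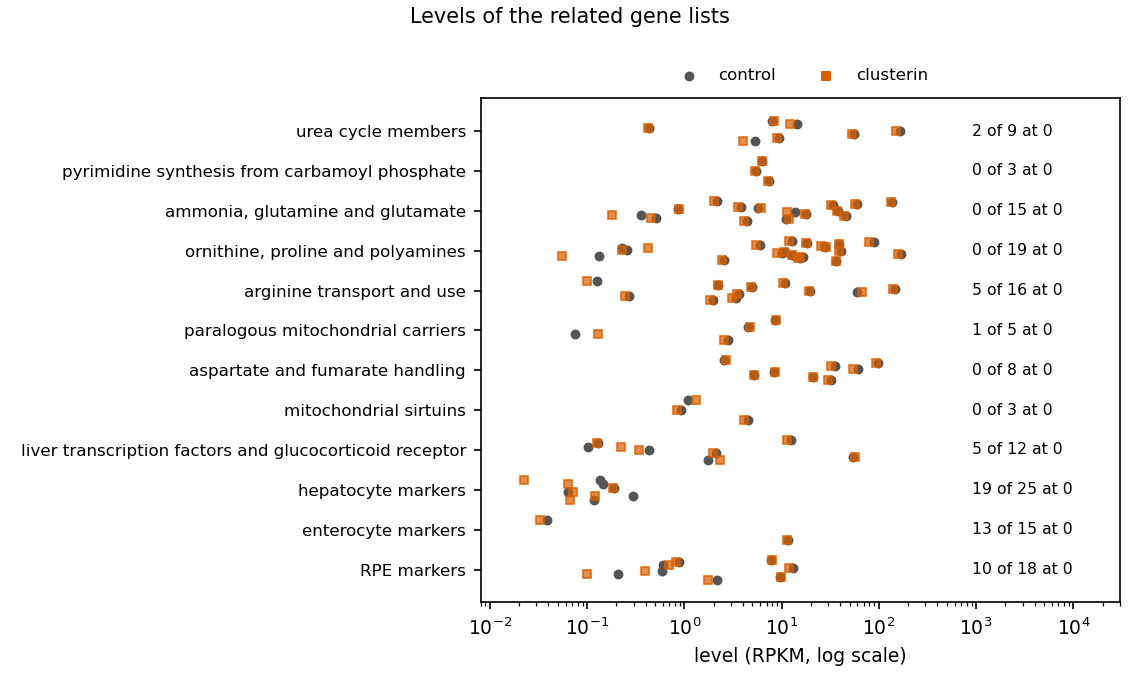
Level of every gene above 0 in the urea cycle set and the related lists, in RPKM on a log axis, with circles for control and squares for clusterin. The text at the right counts genes listed at 0, which are 19 of 25 hepatocyte markers and 13 of 15 enterocyte markers.

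Markers of cell types known for CPS1, and of the labelled cell type, were read from lists. Over all 37364 genes, 16722 stood at 0 with and without clusterin, and a listed 0 is again reported only as such. Of 25 hepatocyte markers, 19 were listed at 0, among them ALB, APOB, TTR and SERPINA1, and the other 6 were below 1 RPKM. Their summed level was 0.945 RPKM in the control and 0.529 RPKM with clusterin. None of these 6 drew more than 20 reads in either library, so no difference is read from the sums. Of 15 enterocyte markers, 13 were listed at 0, among them CDX2, FABP1 and SI, and VIL1 stood at 0.0382 and 0.0330 RPKM. The exception was ALPI, intestinal alkaline phosphatase, at 11.7 and 11.4 RPKM, a level that is uncertain because reads from its near-identical family members cannot be told apart. Of 18 RPE markers, 10 were listed at 0, among them RPE65, RLBP1 and LRAT, and 4 were measured. RDH11, a retinol dehydrogenase, stood at 13.2 and 11.9 RPKM, and MITF, the transcription factor of pigment cells, at 9.70 and 9.88 RPKM. STRA6, the receptor for retinol-binding protein, stood at 7.83 and 7.98 RPKM, and BEST1, the chloride channel bestrophin, at 2.14 and 1.73 RPKM. The other 4 RPE markers were above 0 but below 1 RPKM. Of the markers of the labelled cell type, most were thus listed at 0 or below 1 RPKM, and no cell identity is read from the 4 measured. TTR is on both the hepatocyte and the RPE list.

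Of 12 liver transcription factors, taken with the glucocorticoid receptor, 4 were measured, 2 higher and 2 lower, none past 2-fold, with a median of 0.00. CEBPB stood at 53.8 RPKM in the control and 56.9 RPKM with clusterin. NR3C1, the glucocorticoid receptor, stood at 12.5 and 11.3 RPKM, and FOXA1 at 2.14 and 1.98 RPKM. CEBPA stood at 1.74 and 2.31 RPKM, from 172 and 199 reads, a ratio of 1.33 (1.08 to 1.64). HNF4A, which hepatocytes need for their identity, stood at 0.130 and 0.126 RPKM, and FOXA2, FOXA3, NR1H4, PROX1 and ONECUT1 were listed at 0.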

How the data were processed

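RNA of 2 libraries, 1 per group, was sequenced after oligo(dT) enrichment, per the labels' protocols. Bowtie, TopHat and Cuffdiff with build hg19 are named in the submitters' processing notes; their versions and any strand setting are not given in the sources used here. As for values, the authors deposited 1 level per gene and library, whose unit the header does not name, a log2 fold change, and a p-value and q-value per gene. Gene positions deposited with these values were close to GRCh38.p14, a build other than the named hg19. For CPS1 the start differed by 3 bases and the end by 0. Starts of 8 of the 9 members lay within 200 bases. Positions in hg19 were not compared. For most genes above 0 in both libraries, the Audic-Claverie formula gave the deposited p-value, as described next. Cuffdiff was not run. Build hg19 and Cuffdiff are thus not taken as the source of these values.

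The unit was read from the deposited values. For 491 of 535 small RNA genes, level times length gave whole reads within 0.02 in both libraries, so the deposited levels are RPKM; reads and read pairs cannot be told apart. For other genes, every length to 60000 bases was tried, and reads were kept where both were whole and 1 pair only gave the deposited p-value by the Audic-Claverie formula. Reads were recovered for 20402 of 20525 genes above 0 in both libraries (99.4%). The recovery was tested on simulated data. Genes listed at 0 carry a deposited q of 0, which was not taken as a call. The q threshold of 0.05 was chosen here. Analyses used Python 3.11.15 with scipy 1.17.1. Ratios have exact Clopper-Pearson intervals of the clusterin share of reads, covering counting error only, since without molecular identifiers 2 reads may stem from 1 molecule.

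Coordinates and start-site sequences are those of RefSeq (GRCh38.p14). The deposited starts of 8 of the 9 members lay within 200 bases of the RefSeq gene's; that of OTC lay 24799 bases from it, but 121 bases from the OTC start whose window is shown. All 9 members had a window. Named genes are the members, the 5 nearest in level, up to 4 of the highest genes per list, the neighbours of CPS1 and markers at 0. GOT1, HNF4A, RPS18, KRT8, BST2 and genes at 0 that are no markers were named after their values were seen. The members and the 12 lists were chosen with earlier results of these data known. Older symbols were matched through RefSeq synonyms.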

Additional observations from a re-analysis of the deposited data

How the results depend on the processing

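The CPS1 log2 difference of -0.13 was -0.0609 when the median log2 ratio of measured genes was set to 0 and -0.0933 after quantile normalization, both beyond its counting interval; by construction these scalings remove the general offset. It stayed at -0.13 with pseudocounts of 0.1 and 5 RPKM. No member was 2-fold apart under any pseudocount, filter or scaling tried, and none was 1.5-fold apart. The share of all measured genes at 1.5-fold is not given here, so nothing particular to the members is read from that count. Over those scalings and pseudocounts ARG2 ran from -0.39 to -0.19, SLC25A13 from -0.22 to -0.14 and SLC25A15 from 0.05 to 0.13, each on 1 side of 0, while ASS1 (-0.05 to 0.02), ASL (-0.06 to 0.00) and NAGS (-0.02 to 0.04) crossed it. Of 123 alternative values, 27 moved by more than their counting interval, the SD within their list or 1 percentile point, mostly ranks of the lower members when fewer genes were ranked. The CPS1 percentile stayed within 1 point of 98.6 in the control and 98.5 with clusterin. NAGS, with 34 and 29 reads, is the member that depth limits most: its interval reaches from 0.578 to 1.66. No paired analysis was possible because each group has 1 library.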

Other observations

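The lengths by which the authors divided the reads, recovered with them, were 6165 bases for CPS1, 2072 for NAGS, 1848 for ASS1, 2118 for ASL, 1980 for ARG2, 3193 for SLC25A13 and 4021 for SLC25A15. Only 1 length per gene was used in both libraries, so a different mix of transcripts in either library would not show in these levels. CPS1 was the only member with more than 10000 reads.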
